A study of Mus musculus with 12 samples.

Results

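The genes described here take up, store, export and sense iron. They are the 10 rows of the deposited gene table named Tfrc, Tfr2, Slc11a2, Fth1, Ftl1, Slc40a1, Heph, Hamp, Aco1 and Ireb2, out of 45706 rows in all. They were chosen by gene name, at a time when earlier results of these data were known. Of the 10, 9 passed the filter of a mean of at least 0.1 TPM (transcripts per 1000000) over the libraries, as did 18909 genes in the whole table, and Heph did not.

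The 12 libraries came from BN1-Tie2-EGFP cells, a murine hepatoblastoma (HB) cell line grown from a tumor driven by mutant β-catenin and mutant NRF2. All 4 groups therefore carried both oncogenes, a Crispr-targeted Cdkn2a locus and a Tie2 promoter driving EGFP, and the reporter cells were a pool of stable transfectants of a single HB line. The unsorted cells were grown either in normoxia at 21% oxygen (UN) or for 2 days in hypoxia at 1% oxygen (UH). The brightest EGFP-positive cells were sorted after hypoxia and grown for about 10 days back in normoxia (SN), and some of these were then given a further 2 days at 1% oxygen (SH). There were 3 libraries in each group. The study describes them as independent replicas, the labels do not say whether they were separate cultures, and p-values measure the spread between these libraries. SN and UN cells differed in the sort, in earlier hypoxia and in the time in culture, and these cannot be told apart.

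Cells take up transferrin-bound iron through transferrin receptor 1 (Tfrc), and the metal transporter DMT1 (Slc11a2) moves the freed ferrous iron into the cytosol. What is not used is stored in ferritin, a shell of heavy (Fth1) and light (Ftl1) chains, or leaves through ferroportin (Slc40a1), which hepcidin (Hamp), a hormone made by hepatocytes, removes from the cell surface. The iron regulatory proteins IRP1 (Aco1) and IRP2 (Ireb2) bind iron-responsive elements (IREs) when iron is low. An IRE in a 5′ UTR then blocks translation, and IREs in a 3′ UTR protect the mRNA from decay. Tfrc is also known as a target of hypoxia-inducible factors, and ferritin genes as targets of NRF2.

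The hairpins with the letters and pairing of an IRE are given here before the levels, as a sequence match that shows no binding. GENCODE M21 transcripts (GRCm38) were searched for a hairpin with an unpaired C, a stem of 5 pairs and a 6-base CAGTGN loop, where N is any base and a G-T pair counted as paired. Each line shows the hairpin with the bases around it, with the loop in capitals.
Fth1, 5′ UTR, + strand, chr19:9982738-9982754: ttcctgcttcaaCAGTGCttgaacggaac
Ftl1, 5′ UTR, − strand, chr7:45459785-45459801: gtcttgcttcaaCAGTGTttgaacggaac
Slc40a1, 5′ UTR, − strand, chr1:45925471-45925487: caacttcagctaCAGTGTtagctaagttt
Tfrc, 3′ UTR, + strand, chr16:32631225-32631241: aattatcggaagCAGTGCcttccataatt
Tfrc, 3′ UTR, + strand, chr16:32631604-32631620: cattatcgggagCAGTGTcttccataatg
Tfrc, 3′ UTR, + strand, chr16:32631669-32631685: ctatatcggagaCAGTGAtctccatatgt
Tfrc, 3′ UTR, + strand, chr16:32631716-32631732: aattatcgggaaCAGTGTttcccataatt
Slc11a2, 3′ UTR, − strand, chr15:100395158-100395175: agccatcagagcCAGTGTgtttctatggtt
The storage and export genes Fth1, Ftl1 and Slc40a1 thus held the hairpin in the 5′ UTR and the uptake genes Tfrc and Slc11a2 in the 3′ UTR. The hairpin was found in the 5′ UTR of 31 of 21901 protein-coding genes (0.142%) and in the 3′ UTR of 129 (0.589%). Tfrc was the 1 gene with 3 or more in its 3′ UTR. The Slc11a2 hairpin has 1 extra unpaired base and lies in a single annotated transcript isoform. That form was added to the search after the strict one had not found it, and 233 genes (1.06%) held it in a 3′ UTR. Tfr2, Ireb2, Aco1, Hamp and Heph held neither form, which says only that these letters are not in their annotated UTRs. TPM sum the isoforms of a gene, so the isoform of Slc11a2 with the hairpin was not measured apart from those without it.

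Gene levels were given as TPM, which are corrected for transcript length and can be compared between genes, and all differences below are on the log2(TPM + 1) scale unless a ratio of mean TPM is named. To be called, a gene needed an adjusted p under 0.05 in limma (Benjamini-Hochberg, over all genes tested) and a log2 difference above 1 in size. Of the 9 members tested, 3 were called in each of the 4 main comparisons. Hypoxia lowered Aco1, Fth1 and Slc11a2 in unsorted cells (UH vs UN), where 17.2% of all genes tested were called, and in sorted cells (SH vs SN), where 12.5% were, it raised Tfrc and lowered Fth1 and Aco1. Sorted cells had lower Aco1, Tfr2 and Ireb2 in normoxia (SN vs UN; 10.8% of all genes called), and higher Tfrc and lower Tfr2 and Aco1 in hypoxia (SH vs UH; 13% of all genes called). By direction, the shares of all genes called higher and lower were 5.46% and 11.8% for UH vs UN, 7.47% and 5% for SH vs SN, 3.2% and 7.57% for SN vs UN, and 7.65% and 5.35% for SH vs UH. The libraries of the compared groups did not overlap for 7, 8, 7 and 6 members in these comparisons, in the order given, beside 51.1%, 56.8%, 49% and 51.7% of all genes. Between the remaining pairs of groups, SH vs UN and SN vs UH, 59.4% of all genes had no overlap. No member was called in the difference between the responses to hypoxia of sorted and unsorted cells, where 10.3% of all genes were. In that comparison 2 of 9 members had an unadjusted p under 0.05 in limma, and 1 of 9 had an adjusted p under 0.05 whatever its size, as did 22% of all genes. With 9 genes, these counts are a description.

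The values were scaled only to a common sum in each library, and this scale touches some of the results. The median log2 difference of all genes was −0.19 for UH vs UN and 0.17 for SH vs UH, and median-of-ratios scaling, which centers the libraries on the typical gene, brought these to 0 and 0.03. All genes called in UH vs UN then went from 1032 higher and 2222 lower to 1564 and 1217, and those in SH vs UH from 1447 and 1012 to 1021 and 1323. In SN vs UN, quantile normalization took 606 higher and 1431 lower to 840 and 1136. Mitochondrially encoded transcripts took 5.18% to 7.55% of TPM in UN libraries, 1.67% to 2.53% in UH, 7.64% to 8.38% in SN and 2.66% to 4.68% in SH. Of 8 hypoxia marker genes, 7 were called higher in each of the hypoxia comparisons. The median difference of the 9 members for the comparisons in the same order was −0.51, −0.54, −0.35 and −0.15, beside −0.19, 0.03, −0.06 and 0.17 over all genes.

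**Figure D1:**
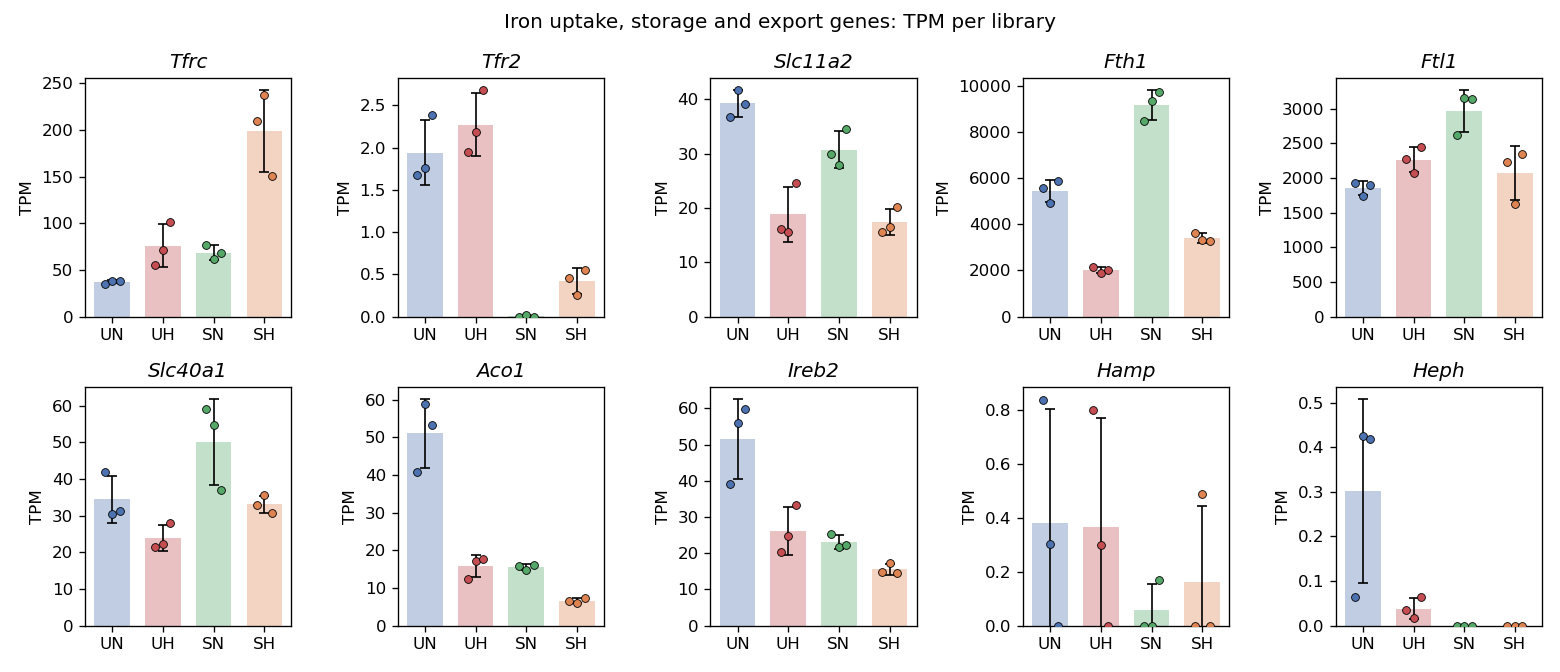
TPM (y axis, linear, its own range for each gene) of the 10 iron genes in UN, UH, SN and SH cells. Points are libraries, bars are means and error bars are the SD of 3 libraries; the tallest groups are SH for Tfrc (150.5 to 237.1 TPM), SN for Fth1 (8473 to 9749 TPM) and UN for Aco1 (40.9 to 58.9 TPM).

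Tfrc (ENSMUSG00000022797, chromosome 16, 32608920 to 32632794, + strand), the receptor that brings in transferrin-bound iron, was lowest in UN cells and highest in SH cells. The UN libraries were at 35.3, 38.1 and 38.4 TPM, and the UH libraries at 55.3, 71.7 and 101.3 TPM. The SN libraries were at 76.8, 61.5 and 67.6 TPM, and the SH libraries at 209.4, 237.1 and 150.5 TPM. Every hypoxic library lay above every library of its normoxic counterpart, and the UH libraries varied most, with a coefficient of variation of 30.7%. In sorted cells hypoxia raised Tfrc by 1.50 (standard error 0.207, adjusted p = 0.000149), from a mean of 68.7 ± 7.73 TPM to 199.0 ± 44.2 TPM (SD, n = 3). In unsorted cells the difference was 0.97 (standard error 0.207, adjusted p = 0.00229), just short of the fold needed for a call, and it was called under median-of-ratios scaling (1.32), under quantile normalization (1.24) and without UH replicate 1 (1.17). The response was not shown to differ between sorted and unsorted cells, since the difference of the differences was 0.53 with a 95% interval of −0.11 to 1.17 (adjusted p = 0.21), and 0.19 under median-of-ratios scaling.

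Sorting went with higher Tfrc in both oxygen levels. Tfrc was 0.86 higher in SN than in UN cells (adjusted p = 0.00725, fold below that of a call) and was called 1.39 higher in SH than in UH cells (adjusted p = 0.000249), without overlap of the libraries in either case. In order of level the groups ran UN, SN, UH and SH, and SN and UH overlapped, with a difference of −0.11 (SN vs UH, adjusted p = 0.702). Genes around Tfrc were also higher in sorted cells. Among 47 genes of at least 5 TPM on average that start within 5 Mb of it, the median difference in SN vs UN was 0.43, beside 0.47 over 314 genes of chromosome 16 and −0.04 over all 10458 genes of that level, and Tfrc lay 0.43 above its neighbors. In SH vs UH the neighbors had a median of 0.36 and Tfrc lay 1.03 above it. In the hypoxia comparisons Tfrc rose against lower neighbors, with medians of −0.30 (unsorted) and −0.20 (sorted). The part of the neighborhood in the level of Tfrc was not tested.

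Tfr2 (ENSMUSG00000029716, chromosome 5, 137569840 to 137587481, + strand), the second transferrin receptor, which hepatocytes and erythroid precursors use to sense transferrin-bound iron, was a low gene that sorted cells nearly lacked. The UN libraries held 1.68, 1.76 and 2.38 TPM, and it was at 1.95, 2.19 and 2.69 TPM in the UH libraries. In SN cells it was listed at 0, 0.0138 and 0 TPM, and in SH cells it was at 0.459, 0.253 and 0.550 TPM. The sorted and unsorted libraries did not overlap, whereas the UN and UH libraries did. Tfr2 was called lower in sorted cells both in normoxia (−1.54, adjusted p = 8.29e-06) and in hypoxia (−1.20, adjusted p = 4.1e-05). Within sorted cells it was higher in hypoxia by 0.49 (adjusted p = 0.0139), which is not a call. At values this low the pseudocount sets the size: with 0.1 in place of 1 the SH vs SN difference was 2.27 and was called.

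Slc11a2 (ENSMUSG00000023030, chromosome 15, 100387898 to 100425072, − strand), which encodes DMT1, fell in hypoxia while Tfrc rose. It was at 36.8, 41.8 and 39.2 TPM in UN cells and at 16.2, 15.5 and 24.7 TPM in UH cells. It was at 29.9, 27.9 and 34.5 TPM in SN cells and at 15.6, 16.4 and 20.1 TPM in SH cells. No hypoxic library reached the level of a normoxic one. Slc11a2 was called lower in UH vs UN (−1.05, standard error 0.168, adjusted p = 0.000313), and the call was lost under median-of-ratios scaling (−0.71), under quantile normalization (−0.74), without UH replicate 1 (−0.97) and without UH replicate 2 (−0.94), with the adjusted p still under 0.05. In SH vs SN the difference was −0.79 (adjusted p = 0.00273). The 2 hypoxic groups overlapped and differed by −0.09 (SH vs UH, adjusted p = 0.709).

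Fth1 (ENSMUSG00000024661, chromosome 19, 9980598 to 9985098, + strand), the ferritin heavy chain, which oxidizes iron for storage, was the most abundant member in all groups but UH and was called lower in both hypoxia comparisons. It was at 5562, 4925 and 5884 TPM in UN cells and at 2136, 1883 and 2022 TPM in UH cells. It was at 8473, 9348 and 9749 TPM in SN cells and at 3643, 3320 and 3257 TPM in SH cells. None of the 4 groups overlapped another, in the order UH, SH, UN and SN. Hypoxia lowered Fth1 by −1.44 in unsorted cells (standard error 0.114, adjusted p = 1.76e-06), where the mean in UH was 0.369 of that in UN, and by −1.43 in sorted cells (standard error 0.114, adjusted p = 3.11e-06), where it was 0.371 of that in SN. The difference of these differences was 0.01, with a 95% interval of −0.35 to 0.36, but it turned on the scale. Under median-of-ratios scaling the differences were −1.08 and −1.42 and differed by −0.34 (adjusted p = 0.341), and under quantile normalization they were −1.88 and −1.15 and differed by 0.73 (adjusted p = 0.0223). Sorted cells had 0.75 more in normoxia (adjusted p = 0.000401; 0.23 and adjusted p = 0.212 under quantile normalization) and 0.76 more in hypoxia (adjusted p = 0.000279), both below the fold of a call. Genes within 5 Mb of Fth1 had medians of 0.25 and 0.37 in these comparisons.

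Ftl1 (ENSMUSG00000050708, chromosome 7, 45457944 to 45459884, − strand), the ferritin light chain, which helps the iron core form, was called in none of the 4 main comparisons by limma, although it had an adjusted p under 0.05 in SH vs SN and SN vs UN, each time in the direction of the heavy chain. It was at 1921, 1738 and 1900 TPM in UN cells and at 2267, 2078 and 2443 TPM in UH cells. It was at 2616, 3149 and 3139 TPM in SN cells and at 2228, 1624 and 2351 TPM in SH cells. Each UH library was above each UN library, with a difference of 0.29 (adjusted p = 0.13; 0.64 and adjusted p = 0.015 under median-of-ratios scaling, 0.04 and adjusted p = 0.871 under quantile normalization), and each SH library was below each SN library, with a difference of −0.53 (adjusted p = 0.0115). The difference between these responses was −0.82 (95% interval −1.27 to −0.37, adjusted p = 0.0156), under the fold of a call and past it (−1.17) with median-of-ratios scaling. In normoxia Ftl1 was 0.68 higher in sorted cells (adjusted p = 0.00385). In order of level the groups ran UN, SH, UH and SN, with overlap between UN and SH and between SH and UH. Named ferritin pseudogenes, which could share reads with Fth1 and Ftl1, are 3 rows of the table and summed to at most 0.345 TPM in a library.

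The balance of the ferritin chain mRNAs, taken within each library so that no scaling between libraries enters, shifted from the heavy toward the light chain in hypoxia. Fth1 stood at 2.89, 2.83 and 3.1 times Ftl1 in UN cells and at 0.942, 0.906 and 0.828 times in UH cells, so that the light chain was the more abundant mRNA in every UH library and in no other. The ratio was 3.24, 2.97 and 3.11 in SN cells and 1.64, 2.04 and 1.39 in SH cells. UN and SN overlapped, whereas UH and SH did not overlap each other or either normoxic group. The 3 against 3 comparisons without overlap gave p = 0.1 in exact two-sided permutation tests, the smallest p that design allows. Both chains together made up 0.731% ± 0.058 of TPM in UN cells, 0.428% ± 0.0275 in UH, 1.22% ± 0.0946 in SN and 0.547% ± 0.0478 in SH (SD, n = 3), again without overlap between normoxic and hypoxic libraries. Unlike the ratio of the chains, this share rests on the common sum of TPM and moves with the scale.

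The mRNAs of the receptor and of the ferritin heavy chain moved apart in every hypoxic library. For each 100 TPM of Fth1 there were 0.687 ± 0.0763 TPM of Tfrc in UN cells and 3.8 ± 1.21 in UH cells (SD, n = 3), a ratio of means of 5.54. In SN cells there were 0.753 ± 0.135 and in SH cells 5.84 ± 1.26 (SD, n = 3), a ratio of 7.75. UN and SN overlapped (exact permutation p = 0.5), as did UH and SH (exact permutation p = 0.2), so sorting was not seen to move this balance beyond the spread of the libraries.

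**Figure D2:**
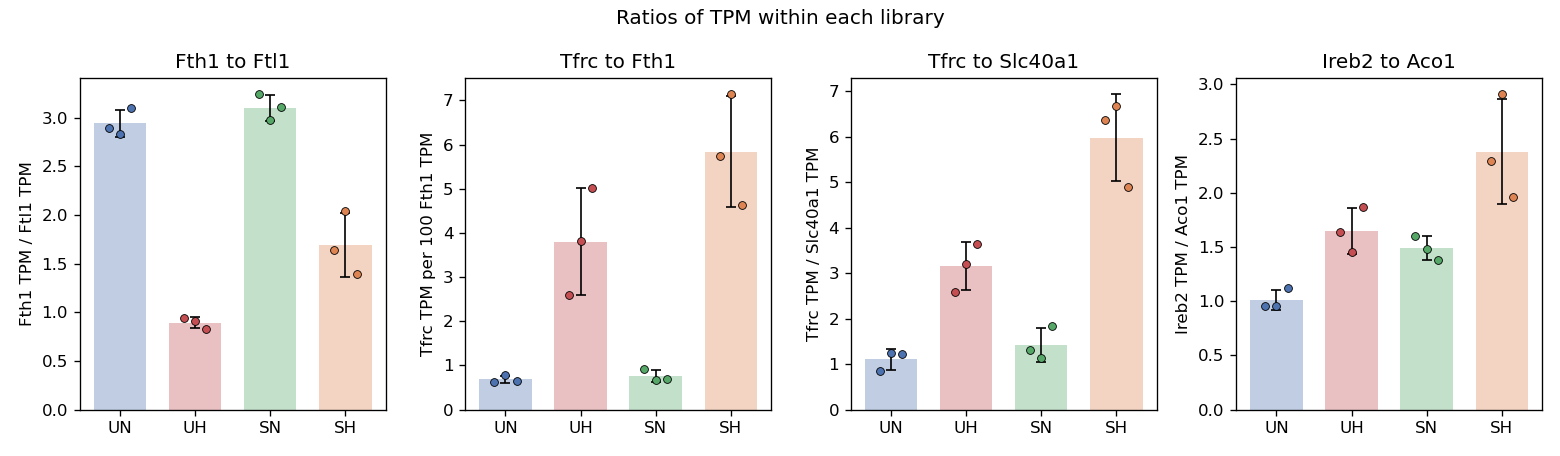
Ratios of TPM within each library (y axes, linear from 0) for Fth1 to Ftl1, Tfrc per 100 Fth1, Tfrc to Slc40a1 and Ireb2 to Aco1, in UN, UH, SN and SH cells. Points are libraries, bars are means and error bars are the SD of 3 libraries; Fth1 to Ftl1 is 2.83 to 3.24 in the normoxic libraries and 0.828 to 2.04 in the hypoxic ones.

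Slc40a1 (ENSMUSG00000025993, chromosome 1, 45908068 to 45926523, − strand), which encodes ferroportin, the one known cellular iron exporter, was called in none of the 4 main comparisons. It was at 41.8, 30.4 and 31.2 TPM in UN cells and at 21.3, 22.3 and 27.9 TPM in UH cells. It was at 59.0, 54.6 and 36.9 TPM in SN cells and at 32.9, 35.5 and 30.8 TPM in SH cells. The hypoxic libraries lay below their normoxic counterparts without overlap, and the differences were −0.51 in UH vs UN (adjusted p = 0.038; −0.16 and adjusted p = 0.511 under median-of-ratios scaling) and −0.56 in SH vs SN (adjusted p = 0.0274; −0.44 and adjusted p = 0.0674 under quantile normalization). SN and UN libraries overlapped (0.52, adjusted p = 0.0467), and UN and SH libraries did too. SH and UH libraries did not, with a difference of 0.46 that did not pass the test (adjusted p = 0.061). The single call was in SN vs UH, the groups at the ends of the order (1.02, adjusted p = 0.000544; 21.4% of all genes called), and it was lost under median-of-ratios scaling (0.80), under quantile normalization (0.74) and when either UH replicate 1, UH replicate 2, SN replicate 1 or SN replicate 2 was left out (0.90 at the lowest). Tfrc was at 1.11 ± 0.231 times Slc40a1 in UN, 3.15 ± 0.525 in UH, 1.42 ± 0.369 in SN and 5.98 ± 0.953 in SH (SD, n = 3), without overlap between hypoxic and normoxic libraries.

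Heph (ENSMUSG00000031209, chromosome X, 96455359 to 96574485, + strand) encodes hephaestin, a copper-containing oxidase that works beside ferroportin, best known in the gut. It was at 0.0643, 0.426 and 0.418 TPM in UN cells and at 0.0357, 0.0159 and 0.0631 TPM in UH cells, and was listed at 0 in all 6 sorted libraries. It was below the filter and was not tested. Hamp (ENSMUSG00000050440, chromosome 7, 30942368 to 30944032, − strand), the hepcidin gene, was at 0.837, 0.303 and 0 TPM in UN cells, at 0.801, 0.301 and 0 TPM in UH cells, at 0, 0 and 0.168 TPM in SN cells and at 0, 0.487 and 0 TPM in SH cells. All groups overlapped, and with adjusted p-values of 0.302 or more in the 6 pairs of groups no difference was detectable at these levels. Genes that define mature hepatocytes, the usual source of hepcidin, were also low in all groups, with Alb at 0.212 to 2.51 TPM, Apoa1 at 0.132 to 0.380 TPM and Ttr at 0 to 0.158 TPM as group means.

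Aco1 (ENSMUSG00000028405, chromosome 4, 40143081 to 40198338, + strand), which encodes IRP1, a cytosolic aconitase that binds IREs when it has lost its iron-sulfur cluster, was called lower with hypoxia and with sorting alike. It was at 40.9, 58.9 and 53.4 TPM in UN cells and at 12.5, 17.1 and 17.8 TPM in UH cells. It was at 15.8, 14.8 and 16.2 TPM in SN cells and at 6.52, 5.96 and 7.39 TPM in SH cells. UH and SN overlapped, and every other pair of groups was separate. The differences were −1.63 in UH vs UN (standard error 0.162, adjusted p = 9.17e-06), −1.12 in SH vs SN (adjusted p = 0.000209), −1.64 in SN vs UN (adjusted p = 1.73e-05) and −1.13 in SH vs UH (adjusted p = 0.000199). SH cells had a mean of 6.62 ± 0.722 TPM (SD, n = 3) and UN cells 51.0 ± 9.24 TPM (SD, n = 3), a difference of −2.76 (adjusted p = 1.31e-07; 20.3% of all genes called). These calls stood under every alternative run.

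The lower Aco1 of sorted cells was shared by the genes around it. Of 57 genes of at least 5 TPM on average that start within 5 Mb of Aco1, 56 were lower in SN than in UN cells, with a median of −1.19, and 38 (66.7%) were called lower, beside 7.33% of all 10458 genes of that level. Over 605 genes of chromosome 4 the median was −0.43. In SH vs UH, 51 of the 57 were lower, with a median of −0.71, beside 0.17 over all genes. Aco1 itself lay 0.45 and 0.42 below these neighbor medians. With hypoxia the median of the neighbors was −0.59 in unsorted cells, where all genes of that level had −0.34, and 0.02 in sorted cells, and Aco1 lay 1.04 and 1.14 below it. The window and level were chosen after these values were first seen, and the part of the neighborhood in the Aco1 differences was not tested.

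**Figure D3:**
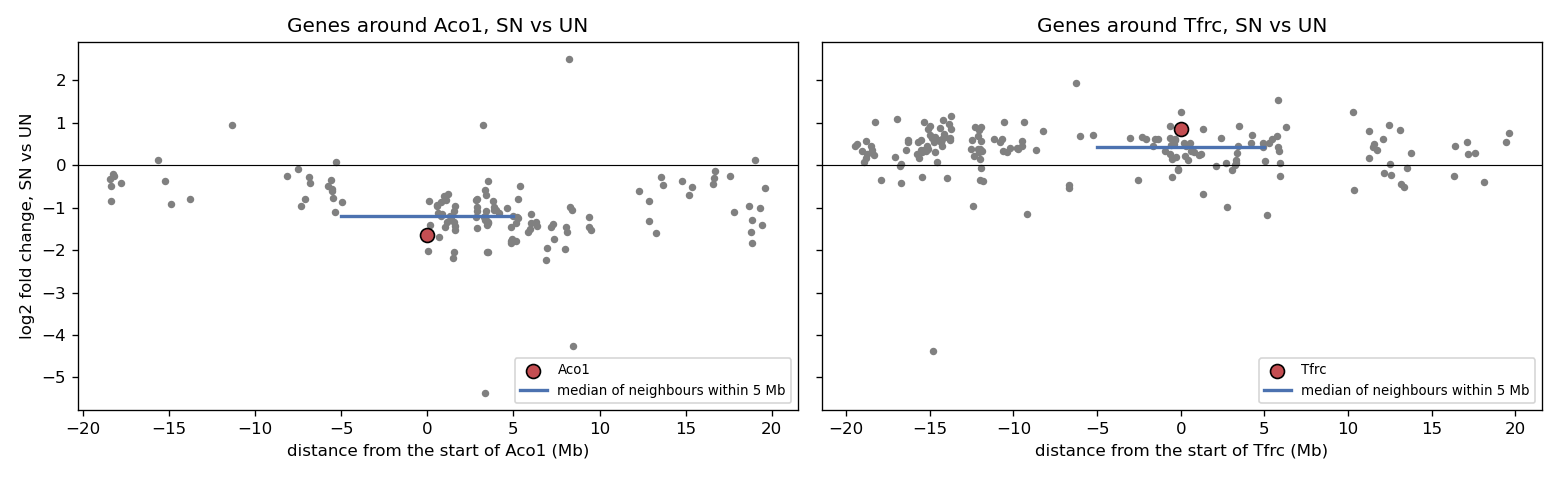
Log2 difference in SN vs UN (y axis) of genes of at least 5 TPM on average against the distance of their start from Aco1 (left) and Tfrc (right) in Mb (x axis). Grey points are genes, the red point is Aco1 or Tfrc, and the blue line is the median of the neighbors within 5 Mb, which lies at −1.19 around Aco1 and at 0.43 around Tfrc.

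Ireb2 (ENSMUSG00000032293, chromosome 9, 54863789 to 54912530, + strand), which encodes IRP2, a regulator that is degraded when iron and oxygen are plentiful, had its groups in the same order of level as Aco1, with smaller differences in the 4 main comparisons. It was at 39.0, 56.1 and 59.8 TPM in UN cells and at 20.5, 24.7 and 33.3 TPM in UH cells. It was at 25.2, 21.8 and 22.3 TPM in SN cells and at 14.9, 17.4 and 14.5 TPM in SH cells. UN lay above all other groups and SH below them, and UH and SN overlapped. Ireb2 was called lower in SN vs UN (−1.11, standard error 0.188, adjusted p = 0.000847), a call lost under median-of-ratios scaling (−0.98) and without UN replicate 3 (−0.99), and in SH vs UN (−1.65, adjusted p = 2.07e-05). Its 77 neighbors within 5 Mb had a median of −0.14 in SN vs UN. The difference in UH vs UN was −0.96 (adjusted p = 0.00133; −0.61 under median-of-ratios scaling), and it was called when mitochondrially encoded genes were left out of the scale (−1.02) and without UN replicate 1 or without UH replicate 3 (−1.14 in both). In SH vs SN it was −0.54 (adjusted p = 0.0369) and in SH vs UH −0.69 (adjusted p = 0.0116).

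The mRNAs of both regulators were about equal in UN cells, and Ireb2 mRNA grew relative to Aco1 mRNA as both fell. Protein was not measured. Ireb2 stood at 1.01 ± 0.096 times Aco1 in UN, 1.65 ± 0.213 in UH, 1.49 ± 0.11 in SN and 2.38 ± 0.485 in SH cells (SD, n = 3). UH and SN overlapped (exact permutation p = 0.3), and the other pairs of groups were separate (exact permutation p = 0.1 in each, the smallest that 3 libraries against 3 allow). Genes around Aco1 were lower in sorted cells too, with a median of −1.19 in SN vs UN beside −0.14 around Ireb2. Their part in this ratio was not tested.

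**Figure D4:**
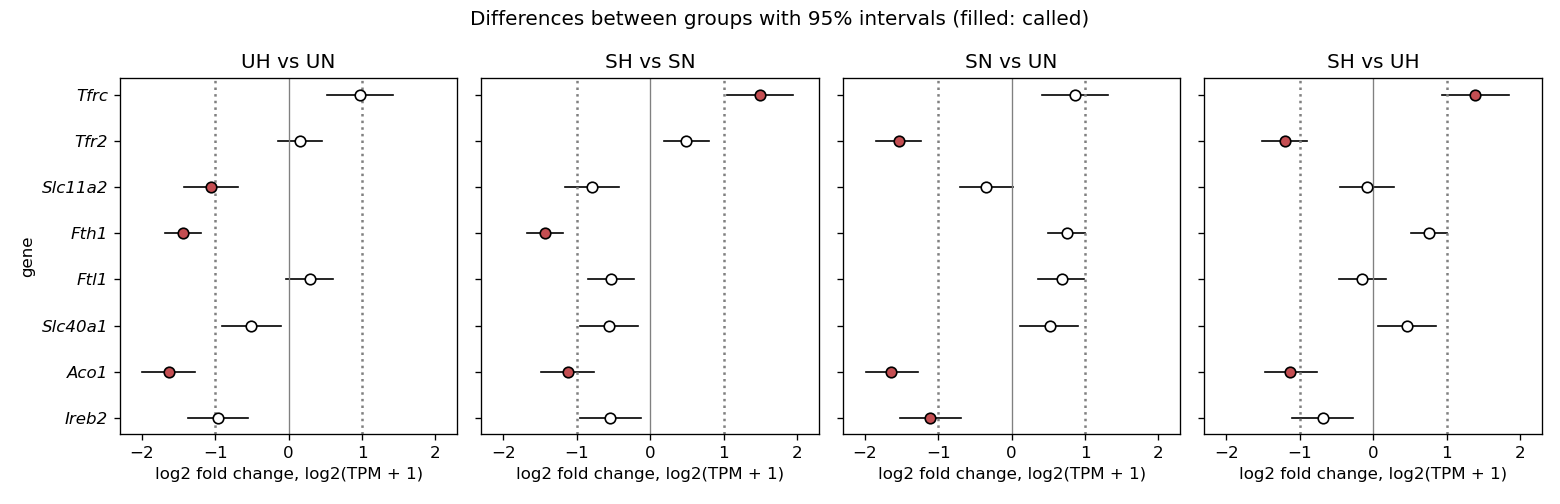
Log2 differences on the log2(TPM + 1) scale (x axis) of the 8 members named on the y axis in UH vs UN, SH vs SN, SN vs UN and SH vs UH. Points are limma estimates, filled where called, lines are 95% intervals and dotted lines mark the 2-fold threshold; Fth1 lies at −1.44 and −1.43 in the hypoxia comparisons and Aco1 below −1 in all 4.

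Set by the place of their hairpins, the genes with a 5′ UTR match, Fth1, Slc40a1 and Ftl1, were all lower in SH vs SN with an adjusted p under 0.05, and Fth1 alone was called. In UH vs UN, Fth1 was called lower, Slc40a1 was lower without a call and Ftl1 did not pass the test. Of the genes with a 3′ UTR match, Tfrc was higher and Slc11a2 lower in both, with an adjusted p under 0.05 each time. Where a promoter of a member was listed by RefSeq (GRCm38.p6, 250 bases before to 50 after each start; 7 of 10 members), it was searched for ACGTG and GCGTG, the core letters of hypoxia response elements, on both strands. Tfrc held 3 matches in each of its 2 promoters, and 8.93% of 32851 promoters held 3 or more. These 2 promoters overlap and have 1 of the matches in common. Fth1 held 0 and 1 in its 2, Ftl1 held 1, Tfr2 held 3, 1 and 0 in its 3, and Aco1, Ireb2 and Hamp held 0. Of all promoters, 43.8% held at least 1. These matches describe letters and show no binding.

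Genes that work beside these members were taken from lists of iron pathways, and are given by their counts. Their differences and calls are given on the main scale only. In UH vs UN, median-of-ratios scaling moved the median of all genes from −0.19 to 0, so calls near the fold may turn on the scale. Of 12 tested genes of iron uptake and reduction, 1 was called higher and 2 lower by hypoxia in unsorted cells, and 1 higher and 5 lower in sorted cells. With sorting, 2 were higher and 1 lower in normoxia, and 1 higher and 2 lower in hypoxia. In these 4 comparisons 25%, 50%, 25% and 25% of the list were called, beside 17.2%, 12.5%, 10.8% and 13% of all genes. The Steap family, whose metalloreductases reduce ferric iron so that DMT1 can carry it, was lower in SH than in SN cells, with all 4 members called. Steap3, the reductase of the transferrin endosome, went from 29.3 ± 8.96 TPM in SN to 9.98 ± 2.26 TPM in SH (SD, n = 3; −1.44, adjusted p = 0.000153), and was at 18.1 ± 2.25 TPM in UN and 9.37 ± 0.476 TPM in UH (−0.88, adjusted p = 0.00342, not called). Steap1 went from 108.9 ± 13.6 to 24.3 ± 3.83 TPM (SD, n = 3) in SH vs SN (−2.12, adjusted p = 6.19e-07). Steap4 was called lower in all 4 comparisons, from 52.8 ± 25.0 TPM in UN to 2.1 ± 0.612 TPM in SH (SD, n = 3).

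The same list holds carriers of iron outside the cell and a receptor for carried heme. Lcn2, which binds iron-loaded siderophores, was called lower in both hypoxia comparisons (−1.37 and −1.69) and higher in SN vs UN (1.01). Lrp1, a receptor for heme-hemopexin among many ligands, was called higher in both hypoxia comparisons, by 1.65 in unsorted and 1.14 in sorted cells. Trf, which encodes transferrin, the ligand of Tfrc, was at 2.17 ± 1.22 TPM in UN and 4.50 ± 1.72 TPM in UH, and at 47.2 ± 12.5 TPM in SN and 46.5 ± 2.49 TPM in SH (SD, n = 3). In SH vs SN the difference was 0.01 for Trf (adjusted p = 0.999), beside 1.50 for Tfrc.

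In the 4 comparisons, where 10.8% to 17.2% of all genes were called, limma called none of 6 tested genes that handle ferritin or help iron export. In UH vs UN, SH vs SN, SN vs UN and SH vs UH, 1, 5, 4 and 5 of them had an unadjusted p under 0.05 in limma. The share of all genes at that unadjusted threshold is not given here, so these counts do not set the list apart. Ncoa4, the receptor that carries ferritin to the lysosome, was at 28.2 ± 2.94 TPM in UN, 37.9 ± 10.2 in UH, 22.9 ± 1.62 in SN and 25.3 ± 3.23 in SH (SD, n = 3), with differences of 0.38 in UH vs UN (adjusted p = 0.095) and 0.13 in SH vs SN (adjusted p = 0.604). Fbxl5, the iron sensor that marks IRP2 for degradation, was lower in both hypoxia comparisons below the fold of a call, by −0.52 (adjusted p = 0.0152) and −0.88 (adjusted p = 0.000723).

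Of 16 tested genes of hepcidin control and iron sensing, 1 was called higher and 1 lower in each comparison. That is 12.5% of the list, near the 17.2%, 12.5%, 10.8% and 13% of all genes called. In hypoxia the called genes were Smad7, an inhibitor of BMP signaling, which rose (1.40 and 1.44), and Id1, a BMP target, which fell (−1.45 and −1.64). In sorted cells they were Fam132b (erythroferrone, a BMP-binding hormone that lowers hepcidin), which was higher (1.46 under normoxia, 1.84 under hypoxia), and Bmp6, the ligand through which liver iron raises hepcidin, which was lower (−1.51 and −1.01). Both were low genes, with Fam132b at most at 3.43 ± 1.11 TPM in SH and Bmp6 at most at 2.45 ± 0.641 TPM in UH (SD, n = 3).

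Of 25 tested genes of mitochondrial iron and iron-sulfur assembly, hypoxia raised 2 and lowered 4 in unsorted cells and raised 1 and lowered 5 in sorted cells. Between sorted and unsorted cells, 2 were called in normoxia, both higher, and 1 in hypoxia, which was lower. In these 4 comparisons 24%, 24%, 8% and 4% of the list were called, beside 17.2%, 12.5%, 10.8% and 13% of all genes. The scaffold of cluster assembly Iscu was called lower in UH vs UN (−1.24). Cisd3, an iron-sulfur protein of mitochondria, rose in both hypoxia comparisons (1.96 and 1.07), and the assembly factor Iba57 rose in UH vs UN (1.06). The iron importer of mitochondria Slc25a37 and the chaperone Hspa9 were the genes higher in SN vs UN (1.16 and 1.03), and the assembly factor Isca1 was the one lower in SH vs UH (−1.17).

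Of 13 tested genes of heme synthesis and breakdown, none was called higher in any of the 4 comparisons, where 3.2% to 7.65% of all genes were. Called lower were 2 in UH vs UN, 1 in SH vs SN and 1 in SN vs UN. Those called made up 15.4%, 7.69% and 7.69% of the list, beside 17.2%, 12.5% and 10.8% of all genes. For SH vs UH the count was 0, and 7 had an unadjusted p under 0.05 in limma, again without the share of all genes to set it against. Alad, an early enzyme of heme synthesis, fell in UH vs UN (−1.22), and Blvrb, which reduces biliverdin, was lower in SN vs UN (−1.12). Hmox1, which frees iron from heme and is an NRF2 target, was at 68.9 ± 9.21 TPM in UN, 125.1 ± 8.27 in UH, 96.9 ± 24.3 in SN and 112.4 ± 3.00 in SH (SD, n = 3), with a difference of 0.86 in UH vs UN (adjusted p = 0.000694, not called).

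Markers of other cell types also differed between sorted and unsorted libraries. The summed level of 6 fibroblast genes was 1010 to 4310 TPM in UN, 4550 to 6810 in UH, 165 to 185 in SN and 41 to 65.2 in SH. The collagens Col1a1, Col1a2 and Col3a1 carried the sum in unsorted cells, and the other genes did not all move with it. Dcn had means of 172 TPM in UN, 53.8 in UH, 119 in SN and 25.4 in SH, Pdgfrb of 44.7, 15.2, 43.8 and 6.08 TPM, and Pdgfra of 142, 28.4, 1.59 and 0.313 TPM. The sum of 6 macrophage genes was 4.35 to 7.81 TPM in UN, 20.2 to 21.2 in UH, 9.31 to 13.8 in SN and 58.3 to 61.8 in SH, nearly all of it from Cd68 and Csf1r, while Adgre1 and Cd163 were at 0 in all UN, UH and SN libraries. Of 8 hepatoblast or hepatocyte genes, 6 had a mean of at least 1 TPM in UN, 5 in UH, 3 in SN and 4 in SH, and the sums were 116 to 286, 181 to 218, 115 to 164 and 97 to 177 TPM. Krt18 carried the sums of the sorted groups, with means of 93.4, 79.6, 126 and 128 TPM in UN, UH, SN and SH. In the same order Dlk1 had means of 58.7, 79.1, 0.389 and 1.15 TPM, and Krt8 of 65.5, 37.8, 4.78 and 10.8 TPM. Hnf4a and Alb were also lower in SN than in UN, whereas Afp was higher in sorted cells (1.83, 1.22, 9.2 and 5.07 TPM). The sum of 7 erythroid genes was 1.29 to 2.34 TPM in UN, 0.946 to 2.72 in UH, 1.34 to 12 in SN and 8.86 to 21.9 in SH, and that of 6 endothelial genes was 0.297 to 0.363, 0.184 to 0.392, 2.27 to 2.95 and 3.18 to 3.98 TPM, most of it from Tek in the sorted groups. In such bulk libraries fewer cells of a kind and less RNA per cell cannot be told apart, and the part of these markers in the results above was not tested.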

How the data were processed

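RNA was sequenced by the authors from 3 libraries in each of 4 groups (12 in all). The authors processed paired-end reads of stranded mRNA libraries with nf-core/rnaseq 3.12.0 and deposited Salmon gene values in TPM, with mm10 as the build; the annotation release is not given in the sources used here. TPM sum to 1000000 in each library and give no depth, so precision rests on the replicates. Groups were taken from the labels.

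TPM were transformed as log2(TPM + 1), and the 18909 genes with a mean of at least 0.1 TPM were fitted with limma 3.58.1 (R 4.3.3; group means, all 12 libraries, moderation with a trend), with Benjamini-Hochberg adjustment over all genes. The study itself tested counts with another tool. The fit was tested on simulated data. Coordinates and UTRs came from GENCODE M21 (GRCm38), which held 98.8% of the gene identifiers. Python 3.11.15 was used with pandas 2.3.3 and numpy 2.4.6 for tables, scipy 1.17.1 for exact tests and matplotlib 3.10.9 for figures.

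The members and gene lists were chosen with earlier results of these data known. All 10 members are named, and in each pathway list and main comparison the 2 called genes that changed most in each direction, together with Trf, Hmox1, Ncoa4, Steap3 and Fbxl5 and, for each member tested, the 3 genes of at least 1 TPM with the highest Pearson r. Other genes named (single markers and BMP or Steap genes) fall under the same lists. Some genes that the rule names are not reported here. Alternatives were a pseudocount of 0.1, no filter or a filter at 1 TPM, median-of-ratios scaling, quantile normalization, rescaling without mitochondrially encoded genes or without the 20 highest genes, moderation without a trend, a replicate block, added ferritin pseudogenes, separate fits of each pair of groups, and leaving out each library.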

Additional observations from a re-analysis of the deposited data

Results flagged for a closer look

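Among the members and pathway genes named by the rule, 9 had responses to hypoxia that differed between sorted and unsorted cells by the test of the difference itself, (SH − SN) − (UH − UN) in limma at an adjusted p under 0.05. Of all genes, 22% did so. Many of the named genes were picked for called changes in these same data, so the count of 9 is a description and sets the named genes apart in no way. For Ftl1 the difference was −0.82 (adjusted p = 0.0156), with every UH library above the UN libraries and every SH library below the SN libraries. For Steap1 it was −1.14, with differences of −0.98 in unsorted and −2.12 in sorted cells. For the hypoxia marker Slc2a1, a glucose transporter, it was −1.60, with a rise of 4.24 in unsorted and 2.64 in sorted cells. The others were not past the fold of a call, with differences of 0.91 for Alad, −0.89 for Cisd3, −0.47 for Hspa9, 0.52 for Iscu, −0.66 for Iba57 and −0.93 for Slc25a37 (adjusted p from 0.00149 to 0.0332). Of the 9 members tested none was called in this comparison (10.3% of all genes were). Of the members, 2 had an unadjusted p under 0.05 in limma, and 1, Ftl1, had an adjusted p under 0.05 whatever the fold (22% of all genes). The median of this difference over all genes was 0.25, which median-of-ratios scaling brought to 0.02.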

How the results depend on the processing

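For single genes, the alternatives are given for the members only. The directions and calls of members in the 4 main comparisons that changed are given with their genes in the report. In the difference of responses, 1 member was called in place of none with a pseudocount of 0.1 (Tfr2) and 1 with median-of-ratios scaling (Ftl1), which also took all genes called from 1527 higher and 412 lower to 901 and 782, and in SN vs UH from 2319 and 1734 to 1630 and 2184. The difference of responses of Fth1, 0.01, became −0.34 with that scaling, 0.73 with quantile normalization, −0.01 without mitochondrially encoded genes, −0.00 without the 20 highest genes and −0.05 to 0.08 with each library left out. With libraries left out, Slc11a2 in SH vs UH ranged from −0.20 to 0.12 and Ftl1 from −0.25 to 0.02. In SH vs UN, Tfr2 was no longer called with median-of-ratios scaling (−0.95) or without UN replicate 3 or SH replicate 2 (−0.94 at the lowest size), and Slc11a2 was not with quantile normalization (−0.99). The replicate block, no filter, a filter at 1 TPM, moderation without a trend, added pseudogenes and a fit of the compared groups alone changed none of the calls of members. The last could not be made for the difference of responses. After the group mean of each gene was subtracted, what remained in same-numbered libraries of different groups had correlations of −0.0631 to 0.141. The numbers were therefore not treated as pairs, and with the replicate block 3 members were called in UH vs UN as without it. The cause of these changes was not tested. Depth is unknown, so what counting error adds at low TPM (Tfr2, Hamp, Heph) cannot be given.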

Other observations

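The genes whose levels ran most like each member over the 12 libraries, by Pearson's r on log2(TPM + 1) among 13567 genes of at least 1 TPM, are given as a description, since the libraries share 4 groups and a scale. For Aco1 they were Nans (0.99), Dnaja1 (0.988) and Stoml2 (0.987), and all of them lie on chromosome 4 close to Aco1, from 40722150 to 40737149 for Dnaja1, from 43027690 to 43031710 for Stoml2 and from 46489248 to 46503632 for Nans. None of the genes most like Tfrc (Hist1h4k, Rev3l and Riok3, 0.982 each) lies on its chromosome. Fth1 was most like Plscr1 (0.991), Mtbp (0.989) and Paics (0.988), and Ireb2 like Aim1 (0.993), Gnb1 (0.988) and Ttll7 (0.985). Slc11a2 was most like Ttc8 (0.983), Diexf (0.982) and 9130011E15Rik (0.98), Tfr2 like Rsph9 (0.983), Dhx57 (0.982) and Obsl1 (0.98), and Slc40a1 like Ergic1 (0.963), Tmem144 (0.959) and Ccnj (0.957). For Ftl1 the highest were Lamtor1 (0.868), Grem1 (0.859) and 4930404N11Rik (0.857), and for Hamp, at its low level, Mrpl30 (0.779), Mzt2 (0.74) and Pex16 (0.735). Among the members themselves, Aco1 and Ireb2 had the highest r (0.966) and Aco1 and Tfrc the lowest (−0.896).

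Around the other members the genes of at least 5 TPM within 5 Mb had medians in SN vs UN between −0.14 and 0.07 for Tfr2, Slc40a1, Slc11a2, Ftl1 and Ireb2 and of 0.25 for Fth1, beside −1.19 around Aco1 and 0.43 around Tfrc. The median over the whole of chromosome 16 was 0.47 under normoxia and 0.46 under hypoxia (sorted against unsorted), and that over chromosome 4 was −0.43 and −0.19. Shifts of this size were not limited to these chromosomes. Chromosome 18 had medians of 0.52 and 0.51, chromosome 12 of −0.37 and −0.29, and chromosome 14 of −0.37 and −0.33. No DNA was measured here, and the cause was not tested.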
